A study of Mus musculus with 2 samples.

Results

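P2rx7 and 6 further genes of purinergic signalling, Art2b, P2rx4, P2ry10, Entpd1, Nt5e and Adora2a, were followed in single spleen T cells of mice. These 7 genes are 7 of the 19837 with a molecule in the expression table, found by symbol. They were selected with their measured values in these same cells known, so what follows describes them and supports no claim with a test. Female C57BL/6 mice (strain label C57/BL6N) received saline, listed at 0 h, or the benzodiazepine remimazolam, a sedative acting on the GABA(A) receptor, at 6 mg/kg, and spleens were taken 4 h or 8 h later, 3 mice to a group. The title of the series asks about T cell activation and the regulatory T cell phenotype. No saline mice were listed at 4 h or 8 h, so time after injection and drug cannot be told apart. The 3 mice of each group share a single hashing tag, a barcode carried into the cells' libraries by an antibody, and all 3 pools shared 1 capture. A treatment is therefore 1 pool without replicates, and no p-value can be given. The labels name the sorted cells CD45+CD3+CD5+ in one place and CD45+ in another.

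Extracellular ATP and NAD are danger signals that T cells sense at the membrane. P2X7, the product of P2rx7, is an ATP-gated cation channel, and in mouse T cells the ectoenzyme made from Art2b uses NAD to ADP-ribosylate P2X7 and thereby opens it. Mouse regulatory, follicular helper and natural killer T cells are known to be sensitive to death through this pair. CD39, from Entpd1, breaks ATP and ADP down to AMP, CD73, from Nt5e, turns AMP into adenosine, and the receptor made from Adora2a answers adenosine by raising cAMP.

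The P2rx7 gene lies at chr5:122643911-122691432 on the plus strand (GRCm38, GENCODE M21). P2rx4 begins 16111 bases beyond its end. A known coding difference between mouse strains lies in the cytoplasmic tail of the receptor, where the leucine allele, known from C57BL/6 mice, gives a less sensitive receptor than the proline allele of other strains. The reference transcript of 595 residues is shown here around that codon, in capitals, at chr5:122680867-122680869 on the plus strand. It reads CTG, a leucine codon.
P2rx7 strain codon with flanks: cacgactcacccCTGactcctggacaa
A second annotated transcript of 592 residues starts at position 122650424, inside the first gene model, and so has its own start region. Both start windows from RefSeq (GRCm38.p6, 250 bases before to 50 after the start) are shown, since the molecules counted at the 3′ end do not tell the 2 transcripts apart. Capitals mark the AP-1 letters TGANTCA, searched on both strands.
P2rx7 first start window, chr5:122643677-122643976, plus strand: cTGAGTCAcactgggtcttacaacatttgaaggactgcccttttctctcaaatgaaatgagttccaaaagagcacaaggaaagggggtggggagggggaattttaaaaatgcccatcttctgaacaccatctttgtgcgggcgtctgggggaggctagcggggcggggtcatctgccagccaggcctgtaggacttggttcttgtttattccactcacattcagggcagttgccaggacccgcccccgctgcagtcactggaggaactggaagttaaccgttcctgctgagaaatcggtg
P2rx7 second start window, chr5:122650133-122650432, plus strand: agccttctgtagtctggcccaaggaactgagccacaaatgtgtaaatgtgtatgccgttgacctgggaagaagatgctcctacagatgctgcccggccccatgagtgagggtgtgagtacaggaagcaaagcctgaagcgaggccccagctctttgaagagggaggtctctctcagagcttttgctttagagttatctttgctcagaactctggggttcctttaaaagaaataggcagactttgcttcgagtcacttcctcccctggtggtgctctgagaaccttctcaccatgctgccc
Art2b start window, chr7:101581112-101581411, minus strand: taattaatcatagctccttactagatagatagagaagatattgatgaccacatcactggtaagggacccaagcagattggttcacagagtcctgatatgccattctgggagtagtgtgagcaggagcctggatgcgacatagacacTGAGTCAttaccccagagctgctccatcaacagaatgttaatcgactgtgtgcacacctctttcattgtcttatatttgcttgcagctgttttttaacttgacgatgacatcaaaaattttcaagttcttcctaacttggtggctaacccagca
Windows were found for 6 of the 7 members, 9 in all. The AP-1 letters stood in 3 of these 9, the first window of P2rx7 and 1 window each of Art2b and P2ry10, against 7.81% of 32851 windows of all genes. RUNX letters, TGTGGT, stood in 4 of the 9, against 16.8% of all windows. The SP/KLF letters GGGCGG stood in 3, against 35.7%. No member window held the CRE letters TGACGTCA, found in 1.79% of all windows. A match of letters is no evidence of binding. The Art2b window lies inside its gene model, which on the minus strand begins at position 101585600, and its last 50 bases open with ATG. Its AP-1 and RUNX letters are therefore not shown to lie at a transcript start.

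Cells with a single tag in use numbered 16174 of 17299, and 16123 passed the filters, of which 15489 (96.1%) fell in the T cell gate. T cells numbered 5092 in the saline pool, 5196 at 4 h and 5201 at 8 h, with 13797760, 14083738 and 14094384 molecules and a median of 2532, 2509 and 2515 molecules per cell. Levels are molecules per 1000000 molecules of a cell class (CPM), with exact 95% intervals that cover counting error only. A count of 3 molecules is 0.217, 0.213 and 0.213 CPM in the T cells of the 3 pools. T cells were divided into 8 gates by molecules of lineage genes, and those meeting none were kept as ungated. In all 35 pairs of a gate with a marker not used to define it, the marker was higher in that gate than in the other T cells.

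Among all T cells P2rx7 was higher in both remimazolam pools than in the saline pool. Saline T cells had 21.5 CPM of it (19.1 to 24.1), 4 h T cells 32.2 CPM (29.3 to 35.3) and 8 h T cells 30.1 CPM (27.3 to 33.1), from 297, 453 and 424 molecules. The 4 h over saline ratio was 1.49 (1.29 to 1.74), and the 8 h over saline ratio was 1.40 (1.20 to 1.63). Both ratios share the saline pool. Between the remimazolam pools the 8 h over 4 h ratio was 0.935 (0.817 to 1.07), an interval that includes 1. The share of T cells with a P2rx7 molecule was 4.75% in the saline pool, 6.72% at 4 h and 6.11% at 8 h, and after thinning each cell to 1500 molecules it was 3.06%, 4.03% and 3.72%. Thinning left out 262, 260 and 283 shallower T cells. A list of 6 natural killer cell genes, none at 0, summed to 56.2 CPM in saline T cells, 64.8 CPM at 4 h and 79.4 CPM at 8 h, one of 4 plasma cell genes to 41.2, 41.6 and 45.3 CPM and one of 3 erythroid genes to 2.10, 0.852 and 1.14 CPM. Their part in the levels of P2rx7 was not tested.

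A gene was counted as higher in a pool when its level was at least 25% above that of the other pool, and as lower when the other pool was at least 25% above it. Entpd1 was the other member so counted against saline. Saline T cells held 2.17 CPM of Entpd1 from 30 molecules, 4 h T cells 3.62 CPM from 51 and 8 h T cells 3.90 CPM from 55. The 4 h over saline ratio was 1.67 (1.04 to 2.71), and that of 8 h over saline was 1.79 (1.13 to 2.90). B cells of the same capture held 2, 16 and 8 Entpd1 molecules in the saline, 4 h and 8 h pools, and myeloid cells 7, 30 and 3. Within the T cells the 7 genes of a B cell list summed to 13.9 CPM in the saline pool, 14.3 at 4 h and 12.7 at 8 h, with none at 0, and the 8 of a myeloid list to 8.33, 8.17 and 9.08 CPM, with 1, 2 and 2 at 0. Their part in the Entpd1 levels was not tested.

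Art2b had 139 CPM (133 to 146) in saline T cells, 168 CPM (162 to 175) at 4 h and 144 CPM (138 to 150) at 8 h. The 4 h pool stood above the other pools, with a 4 h over saline ratio of 1.21 (1.14 to 1.28) and an 8 h over 4 h ratio of 0.855 (0.806 to 0.908), while 8 h over saline gave 1.03 (0.970 to 1.10). Adora2a was also highest at 4 h, with 14.1 CPM in saline T cells, 17.1 at 4 h and 13.6 at 8 h. Its 4 h over saline ratio was 1.21 (0.998 to 1.47) and its 8 h over 4 h ratio 0.792 (0.652 to 0.962). Nt5e stood at 34.6 CPM in saline T cells, 39.9 at 4 h and 37.9 at 8 h, and its 4 h over saline ratio was 1.15 (1.02 to 1.31).

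The ATP-gated channel gene P2rx4 had 9.78 CPM in saline T cells, 9.73 at 4 h and 11.3 at 8 h, and its intervals overlapped across the 3 pools. P2ry10 encodes a receptor of the P2Y family by sequence whose reported ligand is lysophosphatidylserine rather than a nucleotide. It had 86.1 CPM in saline T cells, 79.6 at 4 h and 81.9 at 8 h, and all 3 of its ratios between pools had intervals that include 1.

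By that 25% rule and with at least 50 molecules, 2 of 7 members, P2rx7 and Entpd1, were higher at 4 h than in saline, where 6.09% of 10279 genes were. None was lower, where 2.85% of genes were. The same 2 members were higher at 8 h than in saline, against 4.82% of 10268 genes, and again none was lower, against 3.36%. Between 8 h and 4 h no member was higher, against 2.99% of 10312 genes, and Adora2a was lower, against 5.06%. On the log2 scale the median ratio of the 7 members was 0.27 at 4 h over saline and 0.13 at 8 h over saline, where the medians over all genes counted were 0.02 and 0.00. Since the members were selected with these ratios known, the shares give scale and nothing is read from them.

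**Figure D1:**
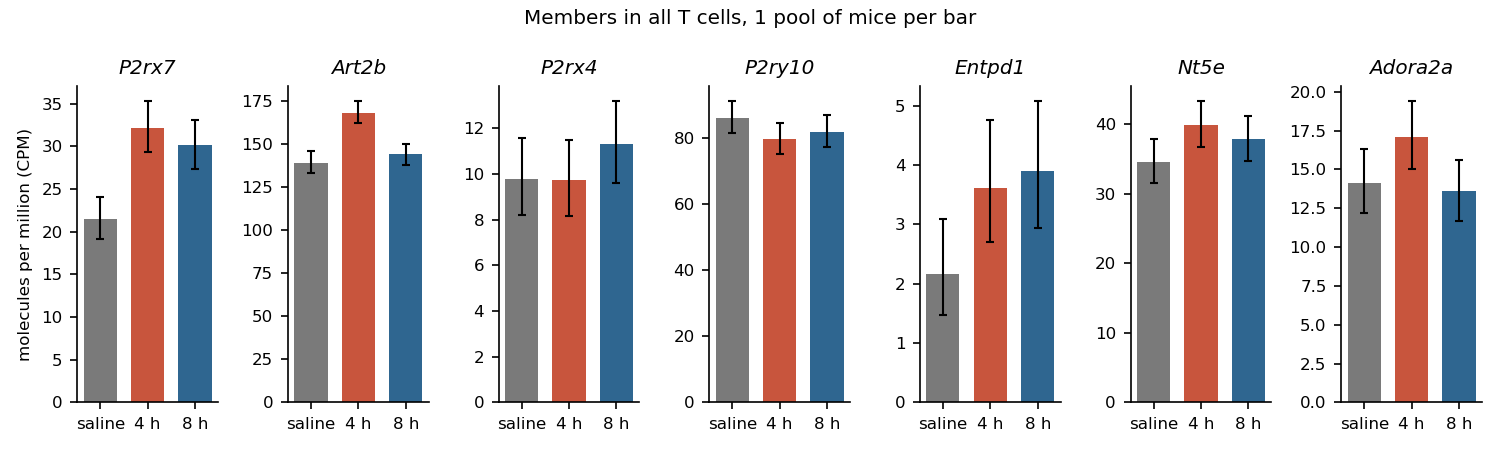
Level of each of the 7 members in all T cells, in CPM, by pool (saline, 4 h and 8 h after remimazolam); bars are 1 pool each and lines are exact Poisson 95% intervals of the molecule count. The P2rx7 bars at 4 h and 8 h (32.2 and 30.1 CPM) stand above saline (21.5 CPM) with intervals apart from it, and the P2rx4 bars, at 9.78, 9.73 and 11.3 CPM, have overlapping intervals.

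P2rx7 molecules were spread very unevenly over the T cell gates. With the 3 pools summed, the innate-like gate, defined by Zbtb16, which encodes the natural killer T cell factor PLZF, had 190 CPM (143 to 248) in 83 cells. Follicular helper cells followed with 150 CPM (119 to 188) in 135 cells, then CD4 memory cells with 106 CPM (90.3 to 123) and Foxp3+ regulatory cells with 103 CPM (88.5 to 119). Those 4 intervals overlap between neighbours, and the order of neighbours is not resolved at this depth. The innate-like interval lies above those of CD4 memory and regulatory cells. All 4 gates stood apart from the rest. Gamma-delta cells had 34.0 CPM (21.8 to 50.6), ungated T cells 31.5 CPM (27.8 to 35.5) and CD4 resting cells 20.9 CPM (18.3 to 23.8). The CD8 gates came last, with 18.8 CPM (13.5 to 25.7) in cells with at least 2 molecules of the chemokine gene Ccl5 and 7.96 CPM (6.61 to 9.52) in the others. B cells carried 2 P2rx7 molecules in 437 cells, or 1.65 CPM (0.200 to 5.96). In the innate-like gate 6 gamma-delta genes not used in gating summed to 1459 CPM, against 2436 CPM in gamma-delta cells and 103 CPM in all T cells. That gate, which excludes gamma-delta cells only by the absence of a Trdc molecule, is thus not shown to hold natural killer T cells alone.

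By cells, 45.8% of innate-like, 38.5% of follicular helper, 22.3% of regulatory and 20.9% of CD4 memory cells had a P2rx7 molecule, against 2.03% of CD8 cells without Ccl5. In B cells, which should hold little P2rx7, the share was 0.458%, at a median of 2226 molecules per cell against 2690 in those CD8 cells. At 1500 molecules per cell the shares were 30.1% of innate-like, 22.7% of follicular helper, 14.8% of regulatory, 13.6% of CD4 memory and 1.03% of CD8 cells without Ccl5. These 5 gates kept their order after thinning.

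The gates were also set side by side within each pool. Regulatory over CD4 resting cells, the P2rx7 ratio was 6.47 (4.36 to 9.57) in the saline pool, 3.97 (2.86 to 5.48) at 4 h and 4.86 (3.44 to 6.82) at 8 h. The corresponding ratios of CD4 memory cells were 5.84 (3.81 to 8.89), 4.66 (3.41 to 6.36) and 4.58 (3.18 to 6.55). Follicular helper cells gave 9.03, 6.21 and 7.14, and innate-like cells 12.6, 7.44 and 8.41. Whether these ratios differed between pools could not be tested with 1 pool each.

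Nt5e, the gene of CD73, was also high in the follicular helper, regulatory and CD4 memory gates. Follicular helper cells held 131 CPM (102 to 166), regulatory cells 127 CPM (111 to 145) and CD4 memory cells 88.9 CPM (74.9 to 105), against 19.3 CPM (16.8 to 22.1) in CD4 resting cells. Innate-like cells, the gate with the highest P2rx7 level, had 45.7 CPM of Nt5e (24.3 to 78.2) from 13 molecules, a ratio to CD4 resting cells of 2.37 (1.24 to 4.13). CD8 cells without Ccl5 had 33.8 CPM (31.0 to 36.9) and CD4 resting cells 19.3 CPM, so the CD8 to CD4 order was the reverse of that of P2rx7, which had 7.96 and 20.9 CPM. The Nt5e ratio of CD8 cells without Ccl5 over CD4 resting cells was 1.75 (1.49 to 2.06), and that of P2rx7 was 0.381 (0.303 to 0.476).

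Entpd1, whose product acts one step before that of Nt5e, was sparse, with 136 molecules in all T cells. Regulatory cells had 18.5 CPM (12.8 to 26.0) from 33 molecules, CD4 memory cells 16.7 CPM from 27 and innate-like cells 17.6 CPM from 5. Only 8 molecules were counted in 4590 CD4 resting cells, or 0.712 CPM (0.307 to 1.40), and the ratio of regulatory over CD4 resting cells was 26.0 (11.8 to 65.3). Ungated cells held 31 molecules and CD8 cells without Ccl5 18, at 3.64 and 1.18 CPM. In the few myeloid cells of the capture Entpd1 reached 221 CPM (158 to 301), and in B cells 21.4 CPM (14.0 to 31.4). At such counts follicular helper cells, with 2 molecules, cannot be placed.

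Art2b was present in every T cell gate and followed another pattern. Innate-like cells had 320 CPM (258 to 393), regulatory cells 196 CPM (176 to 217), CD8 cells without Ccl5 187 CPM (180 to 194) and CD4 memory cells 179 CPM (159 to 201). CD4 resting cells had 108 CPM (102 to 114) and CD8 cells with Ccl5 114 CPM (99.6 to 129). The gate with least P2rx7, CD8 without Ccl5, thus had one of the higher Art2b levels, with a ratio to CD4 resting cells of 1.74 (1.62 to 1.86). B cells had 4.95 CPM from 6 molecules, and no Art2b molecule was found in myeloid cells, where counting allows up to 20.4 CPM. Art2b (chr7:101576970-101585600, minus strand) has a neighbour of the same family, Art2a-ps, 16104 bases away, that has no row in the expression data. Whether reads from Art2a-ps stand under Art2b is not known.

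The receptors P2ry10 and Adora2a had their own orders. P2ry10 was highest in regulatory cells, at 184 CPM (164 to 205), then in gamma-delta cells, at 130 CPM (105 to 160). Follicular helper cells, at 46.3 CPM (29.7 to 68.9), innate-like cells, at 52.8 CPM (29.5 to 87.0), and CD8 cells with Ccl5, at 63.6 CPM (53.3 to 75.3), were at the low end, with overlapping intervals and a different order in each pool. B cells had 143 CPM of it (122 to 166). Adora2a was highest in gamma-delta cells, at 49.5 CPM (34.5 to 68.9), and stood at 38.7 CPM in innate-like, 36.6 CPM in follicular helper, 33.0 CPM in CD8 with Ccl5 and 28.7 CPM in regulatory cells, neighbours whose intervals overlap. CD4 resting cells had 10.9 CPM (9.10 to 13.1) and CD8 cells without Ccl5 10.0 CPM (8.48 to 11.7). P2rx4 ran from 4.32 CPM in CD4 memory cells to 22.6 CPM in gamma-delta cells, from 7 and 16 molecules.

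Counted past a fold of 2 and over at least 50 molecules, 4 of the 6 members that could be counted (P2rx7, P2ry10, Nt5e and Adora2a) were higher in regulatory than in CD4 resting cells, where 6.44% of 9305 genes were. In follicular helper cells P2rx7, Nt5e and Adora2a were, against 8.47% of genes, and in CD4 memory cells the same 3 members, against 5.80%. In innate-like cells P2rx7, Art2b, Nt5e and Adora2a were, against 7.82%. Gamma-delta cells had P2rx4 and Adora2a past the fold, against 5.69%. For CD8 cells with Ccl5 over those without, P2rx7 and Adora2a were past it, against 2.79%, with P2rx7 at 2.37 (1.61 to 3.41) and Adora2a at 3.30 (2.45 to 4.40).

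**Figure D2:**
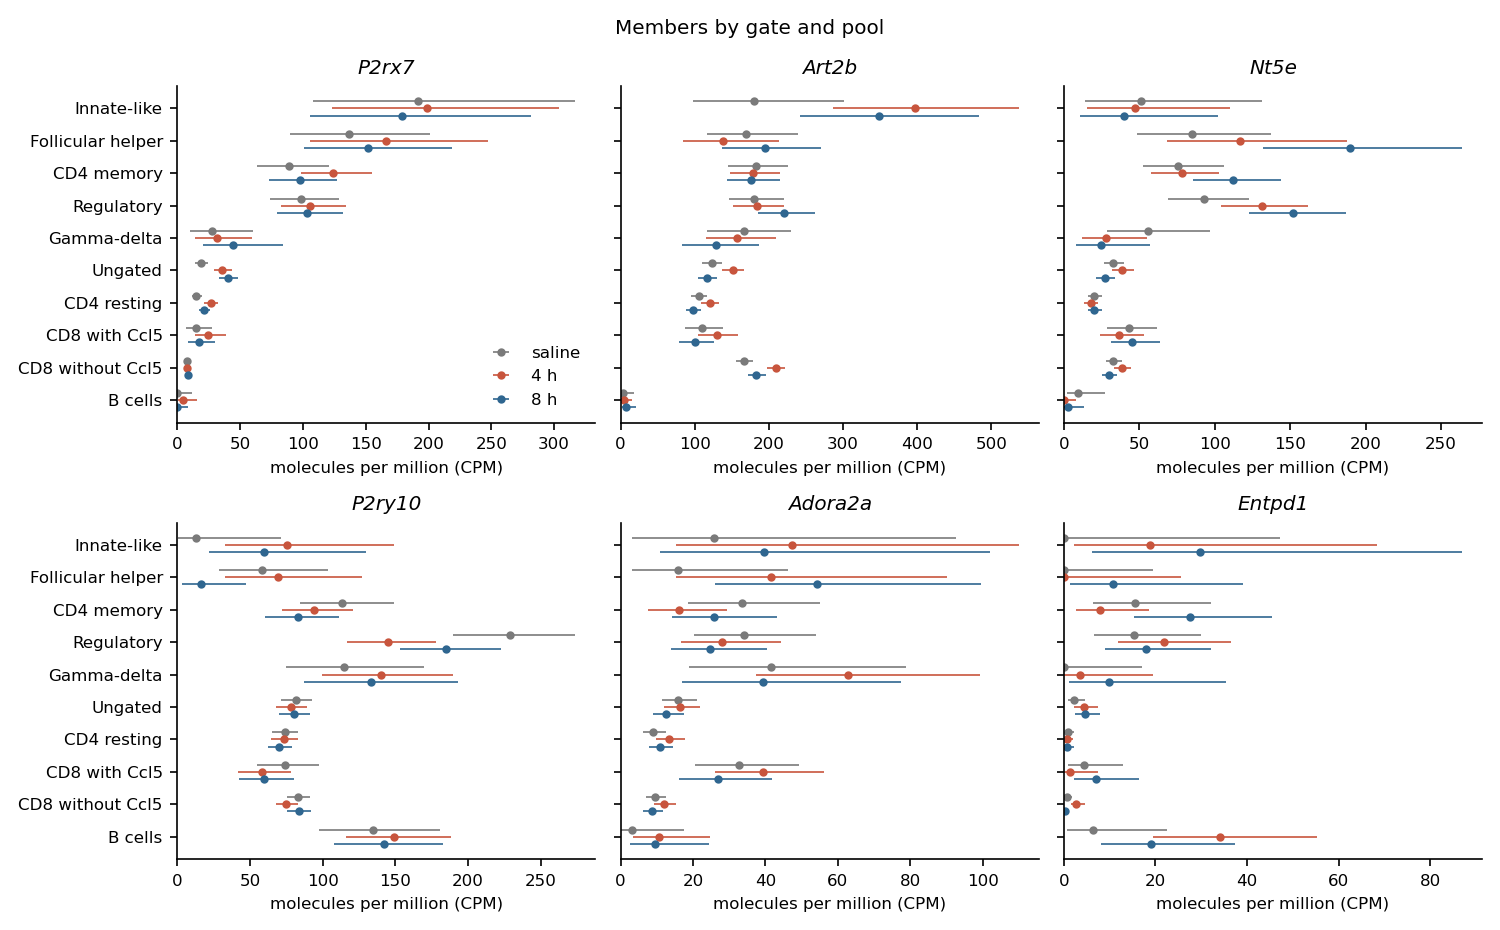
Levels of 6 members by T cell gate, with B cells below, in CPM; points are 1 pool each (saline, 4 h, 8 h) and lines are exact Poisson 95% intervals. In every pool the P2rx7 points of innate-like, follicular helper, CD4 memory and regulatory cells lie above those of all other gates, although at 8 h the gamma-delta interval, up to 83.9 CPM, reaches those of CD4 memory and regulatory cells, while Art2b is present in all T cell gates and near 0 in B cells.

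Within gates, P2rx7 ratios to saline ran from 1.03 to 1.93 at 4 h and from 0.929 to 2.16 at 8 h, and differences between gates were not tested. In CD4 resting cells P2rx7 was 15.2 CPM (11.6 to 19.7) in the saline pool, 26.7 CPM (21.6 to 32.7) at 4 h and 21.2 CPM (16.9 to 26.3) at 8 h, from 58, 94 and 83 molecules. The 4 h over saline ratio there was 1.75, its interval above 1 and reaching 2.48, and the 8 h over saline ratio 1.40 (0.986 to 1.99). Ungated T cells held 18.6 CPM in the saline pool, 35.8 CPM at 4 h and 40.2 CPM at 8 h, from 53, 100 and 115 molecules, with ratios of 1.93 (1.37 to 2.74) and 2.16 (1.55 to 3.06) to saline. One ungated cell of the 8 h pool alone held 9 of those 115 molecules. Some lists of marker genes were also higher in both remimazolam pools in this class, and others were not. The 6 natural killer genes summed to 45.9 CPM in the saline pool, 64.4 CPM at 4 h and 116 CPM at 8 h, with 0, 2 and 0 of them at 0. The 5 innate-like genes summed to 420, 565 and 493 CPM and the 5 genes of CD8 cells with Ccl5 to 664, 821 and 801 CPM, with none at 0. For 5 memory genes not used in gating the sums were 560, 673 and 601 CPM. The 6 regulatory genes gave 304, 311 and 282 CPM and the 4 follicular helper genes 314, 306 and 321 CPM. Sums of the 6 gamma-delta genes were 96.3, 117 and 88.0 CPM, and those of the 4 plasma cell genes 48.3, 45.5 and 48.6 CPM. Their part in the P2rx7 levels was not tested. In CD4 memory cells the levels were 89.0 CPM in the saline pool, 124 CPM at 4 h and 97.4 CPM at 8 h, with ratios to saline of 1.40 (0.944 to 2.10) and 1.09 (0.713 to 1.69).

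Regulatory cells, one of the gates richest in P2rx7, had nearly equal levels in all pools, 98.5 CPM for saline, 106 CPM at 4 h and 103 CPM at 8 h. Their ratios to saline were 1.08 (0.739 to 1.58) at 4 h and 1.05 (0.714 to 1.54) at 8 h. CD8 cells without Ccl5 gave 1.06 (0.663 to 1.70) and 1.17 (0.735 to 1.86), follicular helper cells 1.21 (0.663 to 2.19) and 1.10 (0.624 to 1.96), and innate-like cells 1.03 (0.508 to 2.15) and 0.929 (0.442 to 1.98). These intervals also hold the ratio of all T cells, so the depth does not show whether these gates differ from the others.

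Of the 10.64 CPM by which P2rx7 was higher in T cells at 4 h than in saline, ungated cells carried 30.6%, CD4 memory cells 24.8%, CD4 resting cells 23.2% and regulatory cells 9.96%. Of the 8.56 CPM at 8 h over saline, ungated cells carried 50.5%, CD4 resting cells 19.7% and CD4 memory cells 10.1%. These parts include changes in the size of each gate. CD4 memory cells were 3.06% (2.61% to 3.57%) of T cells in the saline pool, 3.96% (3.45% to 4.53%) of those at 4 h and 3.60% (3.11% to 4.14%) of those at 8 h. Regulatory cells were 4.07%, 4.39% and 4.48%. Innate-like cells were 0.393% (0.240% to 0.606%), 0.674% (0.470% to 0.936%) and 0.538% (0.358% to 0.777%). Ungated cells were 21.2%, 20.6% and 20.9%, and CD4 resting cells 30.3%, 28.0% and 30.7%. A list of 5 memory genes not used in gating summed to 581 CPM in saline T cells, 643 CPM at 4 h and 638 CPM at 8 h, with none at 0. With the gates held at the shares of molecules they had in the saline pool, the P2rx7 ratio to saline was 1.43 at 4 h and 1.35 at 8 h, and without ungated cells it was 1.40 and 1.23, the second under the 25% counted as higher. In sums over a class, more cells with the RNA and more RNA per cell cannot be told apart.

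Ungated cells were mostly T cells without any Cd4, Cd8a or Cd8b1 molecule. In those, P2rx7 was 18.2 CPM in the saline pool, 34.4 CPM at 4 h and 42.4 CPM at 8 h. In ungated cells with both Cd4 and CD8 molecules it was 17.1 CPM, 37.3 CPM and 36.4 CPM, so both kinds were higher after remimazolam. Among ungated cells with at least 2 molecules of the memory genes S100a4, Itgb1, Maf and Cxcr3, P2rx7 was 49.6 CPM in the saline pool, 67.4 CPM at 4 h and 129 CPM at 8 h. Such cells numbered 108, 152 and 140. In the remaining ungated cells it was 13.5 CPM, 28.1 CPM and 21.2 CPM. CD4 resting cells with none of those 4 memory genes held 14.0 CPM in the saline pool, 20.1 CPM at 4 h and 19.6 CPM at 8 h, with ratios of 1.44 (0.971 to 2.15) and 1.40 (0.952 to 2.08). CD4 resting cells with exactly 1 such molecule had a 4 h over saline ratio of 3.24 (1.58 to 7.14), from 31 and 11 molecules, and an 8 h over saline ratio of 1.33 (0.580 to 3.17), from 16 and 11. These divisions were made after the values of the gates had been seen.

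**Figure D3:**
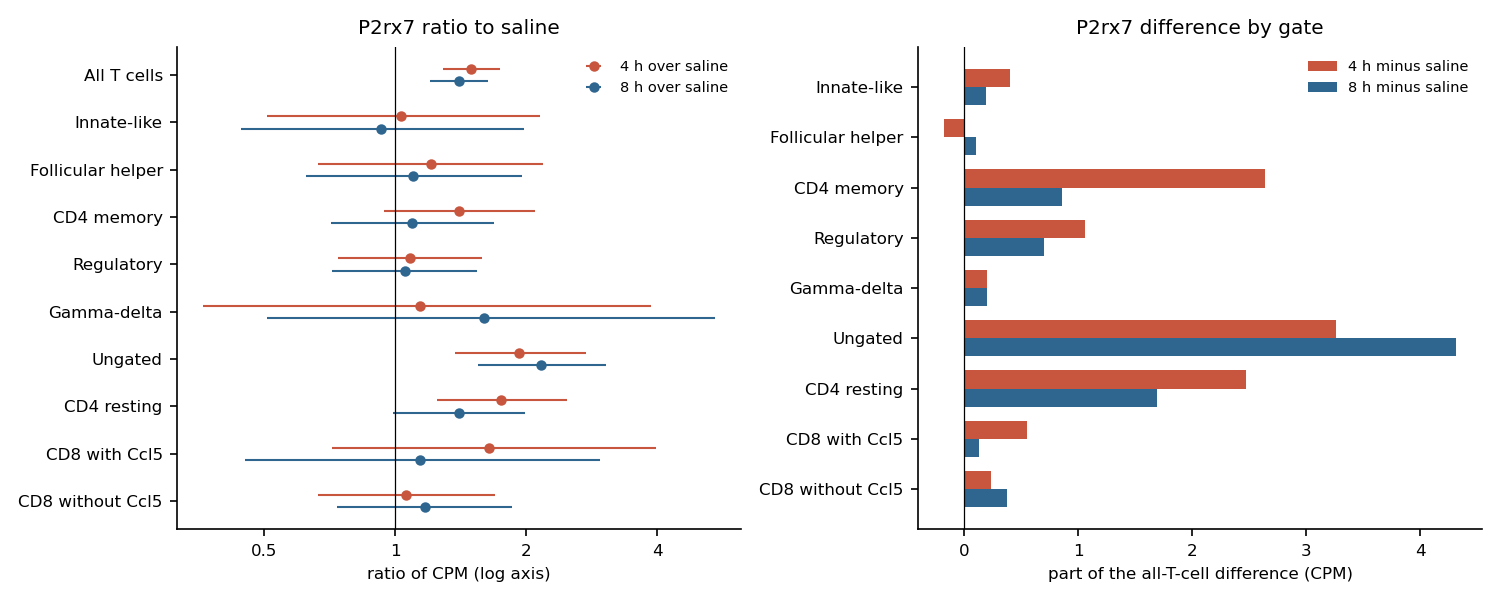
Left, ratio of P2rx7 CPM at 4 h and 8 h over saline (log axis), for all T cells and each gate; points are ratios of 1 pool to 1 pool and lines are exact 95% intervals of counting error. Right, the part of the all-T-cell difference in CPM that each gate carried; ungated, CD4 memory and CD4 resting cells carried most of it, and the ratio in regulatory cells is close to 1 (1.08 and 1.05).

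Some ratios of other members within single gates follow. Over all 7 members and all gates, ungated cells included, 20 ratios to saline with at least 50 molecules were past the 25% rule. The share of all genes past it was taken, within gates, only for CD4 resting and regulatory cells. Nothing is therefore read from the ratios in the follicular helper, innate-like, CD4 memory and CD8 gates. Nt5e in regulatory cells was 92.8 CPM (68.7 to 123) in the saline pool, 131 CPM (104 to 162) at 4 h and 152 CPM (123 to 187) at 8 h, from 49, 84 and 93 molecules. The 4 h over saline ratio was 1.41 (0.980 to 2.05), the 8 h over saline ratio 1.64 (1.15 to 2.37). One regulatory cell of the saline pool held 9 of the 49 molecules there. In follicular helper cells Nt5e had 84.6 CPM in the saline pool, 117 CPM at 4 h and 190 CPM at 8 h, from 16, 17 and 35 molecules, and the 8 h over saline ratio was 2.24 (1.21 to 4.34). The 4 follicular helper genes not used in gating summed there to 1210 CPM in the saline pool, 1458 CPM at 4 h and 1842 CPM at 8 h, with none at 0, and the 5 memory genes to 1601, 1264 and 1078 CPM, with 1 at 0 in each. Their part in the Nt5e levels was not tested. CD4 memory cells gave 1.48 (0.959 to 2.33) at 8 h over saline, and CD4 resting cells 1.01 (0.730 to 1.41).

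P2ry10 in regulatory cells was 229 CPM (190 to 274) in the saline pool, 145 CPM (117 to 178) at 4 h and 185 CPM (153 to 223) at 8 h. The 4 h over saline ratio was 0.633 (0.478 to 0.836), and the 8 h over saline ratio was 0.808 (0.619 to 1.05). In CD4 resting cells P2ry10 differed little, with 0.994 (0.836 to 1.18) at 4 h over saline. Art2b in CD8 cells without Ccl5 was 167 CPM (156 to 179) in the saline pool, 209 CPM (197 to 222) at 4 h and 183 CPM (172 to 196) at 8 h, with a 4 h over saline ratio between 1.14 and 1.37, its point value just under the 25% rule. That gate carried 58.1% of the 28.91 CPM by which Art2b was higher at 4 h than in saline. In innate-like cells Art2b was 180 CPM (98.2 to 301) in the saline pool, 397 CPM (286 to 537) at 4 h and 348 CPM (242 to 483) at 8 h, from 14, 42 and 35 molecules in 20, 35 and 28 cells. In the same gate the 5 genes of CD8 cells with Ccl5 summed to 1475 CPM in the saline pool, 2915 CPM at 4 h and 3267 CPM at 8 h, with 1 at 0 in each, and the 6 natural killer genes to 103, 246 and 338 CPM, with 4, 3 and 3 at 0. Their part in the Art2b levels was not tested. P2rx4 in CD4 resting cells was 9.19 CPM in the saline pool, 7.95 CPM at 4 h and 14.3 CPM at 8 h, with an 8 h over saline ratio of 1.56 (1.01 to 2.45).

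In CD4 resting cells P2rx7 and Adora2a were higher by the 25% rule at 4 h over saline, against 8.13% of 8471 genes, and P2rx7 and P2rx4 at 8 h over saline, against 6.33% of 8535. In regulatory cells, with fewer molecules, fewer genes could be counted and a larger share of them was past it. Nt5e was higher at 8 h, against 13.5% of 4123 genes, and at 4 h, against 14.9% of 4222, and P2ry10 was lower at 4 h, against 14.9%. These shares of all genes are large, and nothing is read from 1 member of 4 past the rule.

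Of 909 T cells with a P2rx7 molecule, 40.7% (37.5% to 44.0%) also had an Art2b molecule, against 26.7% (26.0% to 27.4%) of 14580 without. Their median depths were 2721 and 2508 molecules. As a level, Art2b was 214 CPM in the cells with P2rx7 and 146 CPM in those without. Within regulatory cells the Art2b share was 43.6% (35.5% to 52.0%) with P2rx7 and 29.5% (25.6% to 33.6%) without, and within CD8 cells without Ccl5 it was 42.2% (32.8% to 52.0%) and 34.8% (33.5% to 36.1%). Depth moved with these shares, and its part was not tested. As a level, Art2b in regulatory cells was 234 CPM with P2rx7 and 182 CPM without. In CD8 cells without Ccl5 the 2 levels were close, at 195 and 187 CPM. Nt5e was found in 30.2% (23.0% to 38.3%) of regulatory cells with P2rx7 and 19.7% (16.3% to 23.3%) of those without, and in CD4 memory cells in 16.5% and 17.5%. As a level, Nt5e was 160 CPM with P2rx7 and 115 CPM without in regulatory cells. In CD4 memory cells the order was the reverse, at 62.7 and 97.4 CPM.

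The genes most like P2rx7 were ranked by the Pearson correlation of log2(CPM + 10) over 23 points, each a gate in a pool with at least 40 cells. The ranking held 9102 genes with at least 200 molecules. Members and every gene used to define a gate or the T cell, B cell and myeloid classes were left out of it. The correlation describes gates of 1 capture that share libraries and depth. Cyfip1, an actin regulator of the WAVE complex, came first at 0.959. Ptpn7, a leukocyte phosphatase, followed at 0.956, Icos, a costimulatory receptor, at 0.947, Ctsb, a cathepsin, at 0.946, Tiam1, a Rac activator, at 0.946, Ucp2, a mitochondrial carrier, at 0.943, Tbc1d4, a Rab regulator, at 0.938 and Pdia3, a disulfide isomerase, at 0.930. No innate-like pool reached 40 cells, so that gate did not enter, and neither did follicular helper cells at 4 h. Over the 9 gates with pools summed, which include it, 3 of these 8 were again among the first 8. Cyfip1 and Tiam1, at 3.52 and 21.1 CPM in innate-like cells where P2rx7 was at its highest, were at 0.631 and 0.749 over the 9 gates. Of the members, Nt5e stood at 0.80 over the 23 points, Entpd1 at 0.68, Art2b at 0.48, Adora2a at 0.41, P2ry10 at 0.11 and P2rx4 at -0.24.

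A wider list of 75 further genes of purinergic signalling, from ATP release to the adenosine response, showed how much of the pathway these cells expressed. Of these, 10 had no molecule counted in T cells, and 42 had enough for a ratio between the saline and 4 h pools. Symbols without a row in the expression data, such as Art2a-ps, are among the 10 and are not shown to be unexpressed. The remaining P2X genes were nearly silent, with at most 3 molecules each in all T cells. Among P2Y genes P2ry10b, a close relative beside P2ry10 on chromosome X, had 2096 molecules and no other reached 50, and of the adenosine receptors Adora1 and Adora2b had none and Adora3 had 5.

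Of the 42 genes, 3 were higher at 4 h than in saline by the 25% rule, where 6.09% of all genes were, and none was lower, where 2.85% were. At 8 h over saline 1 was higher, where 4.82% of all genes were. These counts are near or under the background, so nothing is read from them about the list, and the genes past the rule are named only as the rule asks. Casp1, the inflammatory caspase, was 9.06 CPM in saline T cells, 14.5 CPM at 4 h and 10.0 CPM at 8 h, with a 4 h over saline ratio of 1.60 (1.27 to 2.01). Icosl, the ligand of ICOS and a target of surface shedding, was 7.90 CPM in saline T cells, 11.6 CPM at 4 h and 7.38 CPM at 8 h, with a ratio of 1.47 (1.14 to 1.88). Both were lower at 8 h than at 4 h, with ratios of 0.691 (0.553 to 0.860) for Casp1 and 0.638 (0.494 to 0.820) for Icosl. Cd38, whose product consumes NAD, was 4.42 CPM in saline T cells, 6.39 CPM at 4 h and 5.96 CPM at 8 h, with ratios to saline of 1.45 (1.03 to 2.03) and 1.35 (0.958 to 1.91). Cd38 was the gene counted as higher at 8 h.

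The median log2 ratio of the 42 genes was 0.01 at both times. Among the genes of the list with most molecules counted, all of these lay within 25% for 4 h over saline: Il7r, the interleukin 7 receptor, at 0.968 (0.946 to 0.992), Myh9, the non-muscle myosin, at 0.932 (0.907 to 0.958), Gnas, the stimulatory G protein, at 0.969 (0.942 to 0.996), Prkar1a, a protein kinase A subunit, at 1.01 (0.974 to 1.05) and Il6ra at 0.920 (0.884 to 0.957). The 8 genes of the adenosine response all lay within 25% at both times.

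**Figure D4:**
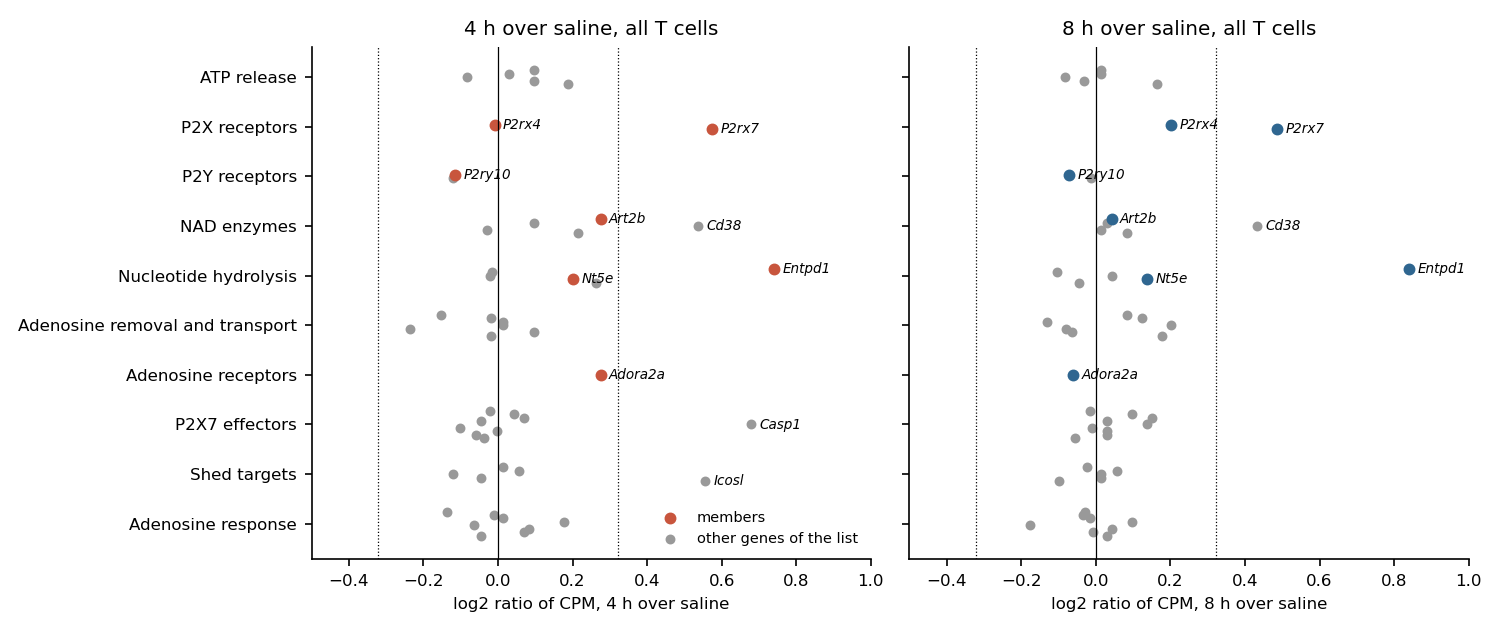
Log2 ratio of CPM over saline in all T cells at 4 h (left) and 8 h (right), by role in purinergic signalling, for genes with at least 50 molecules; coloured points are members, grey points the other genes of the list, and dotted lines mark a level 25% higher in either pool. Most genes lie within the dotted lines, and P2rx7, Entpd1 and Cd38 lie beyond them at both times.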

How the data were processed

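Reads were processed by the authors with BD's WTA Multiplex Rhapsody software, version 1.9.1, against GRCm38 with GENCODE M19, per the file headers. The deposited expression table holds counts of molecules per cell and gene, that is, unique molecular identifiers after the pipeline's error adjustment, with the unadjusted molecule counts beside them. The deposited calls give each cell 1 tag, a multiplet or none. No aligner is named in the headers or labels. Tag 8 marked saline, tag 10 marked 4 h and tag 9 marked 8 h.

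The 7 members, the gene lists and the gates were chosen with earlier results of these data known. Cells needed at least 200 genes and under 25% mitochondrial molecules. T cells needed at least 2 molecules of 6 CD3 and T cell receptor constant genes and at most 1 each of the B cell and myeloid lists. Regulatory cells had Foxp3, gamma-delta cells Trdc, innate-like cells Zbtb16, CD4 and CD8 cells Cd4 or Cd8a and Cd8b1, each from 1 molecule. CD4 memory cells had 2 or more molecules of S100a4, Itgb1, Maf and Cxcr3, follicular helper cells of Cxcr5, Pdcd1, Bcl6, Tox2 and Il21. Cells with CD8 molecules and Cd4 or Foxp3, or with Trdc and Cd4 or Foxp3, stayed ungated. Other overlaps were settled by a fixed order. CD8 cells could hold Trdc or Zbtb16, and cells with Foxp3 and Zbtb16 counted as regulatory. Those with Trdc and Zbtb16 but no Cd4, CD8 or Foxp3 molecule counted as gamma-delta. CD4 cells meeting both the follicular and the memory rule counted as follicular helper. Multiplet calls (6.14% of cells) were removed. No doublet caller was run within pools, and ambient RNA was not corrected.

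Molecules were summed per gate and pool and scaled to CPM. Intervals are exact 95% ones (Poisson for levels, Clopper-Pearson for shares, conditional binomial for ratios), and together with the 3-molecule floor they cover counting error only. The calculation of ratios and intervals was run on simulated Poisson counts with known folds. Those counts held no variation between mice, pools or cells, so the run says nothing about such variation. Named genes were all members, listed genes past the 25% rule, the 6 others with most molecules, of which 1 is not reported here, and the 8 most like P2rx7. The 3′ molecules are not length-scaled, so levels are compared within a gene, and molecules of different genes are given as counts only. Software was Python 3.11.15, numpy 2.4.6, pandas 2.3.3, scipy 1.17.1, matplotlib 3.10.9 and R 4.3.3 with edgeR 4.0.16 for TMM scaling. Coordinates are from GENCODE M21.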

Additional observations from a re-analysis of the deposited data

Results flagged for a closer look

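In CD4 memory cells the Entpd1 ratio of 8 h over 4 h was 3.46, and in CD8 cells without Ccl5 it was 0.0750. The first rests on 15 and 5 molecules and the second on 1 and 14, so the opposite directions are untested, with 1 pool per time. In the cells called multiplets, which enter no comparison, P2rx7 was at 21.1 CPM, Art2b at 148 CPM, P2rx4 at 10.1 CPM, P2ry10 at 82.9 CPM, Entpd1 at 3.69 CPM, Nt5e at 41.6 CPM and Adora2a at 14.0 CPM. All are above the 0.615 CPM that 3 molecules give in those 1063 cells, whose median of 4473 molecules was above that of the single-tag T cells.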

How the results depend on the processing

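Of 310 values under alternatives, 22 moved beyond the interval of the value reported or, for counts, by more than 1.5 times. No ratio whose reported interval excluded 1 changed direction. Ratios with an interval including 1 could cross it, as Entpd1 at 8 h over 4 h did, 1.08 as reported and 0.704 with no T cell gate. P2rx7 over saline ran from 1.40 to 1.56 at 4 h and from 1.23 to 1.47 at 8 h, and Entpd1 from 1.54 to 2.35 and from 1.63 to 2.08. At 4 h over saline 3 members instead of 2 were past the 25% rule with raw molecules, without the 3% deepest cells and without ungated cells, the third being Adora2a. The number at 8 h over saline was 1 without ungated cells, Entpd1, against 2 as reported. At 8 h over 4 h it was 2 with no T cell gate or with each cell weighted equally, and 0 under TMM scaling or without the gamma-delta and Zbtb16 gates, against 1 as reported, and the cause was not tested. With 2 molecules per gate gene the P2rx7 ratio of CD4 memory over CD4 resting cells was 3.64. In ungated cells with 2 or more memory molecules the P2rx7 ratio at 4 h over saline was 1.36, a division added after the data were seen, as were leaving out ungated cells and the division of CD4 resting cells. With a minimum of 10 molecules, 1340 genes were higher and 836 lower at 4 h over saline, against 626 and 293, 1180 and 904 at 8 h over saline, against 495 and 345, and 886 and 1189 at 8 h over 4 h, against 308 and 522. No paired analysis was possible because each treatment is 1 pool. Depth limits Entpd1 within gates, and the innate-like and follicular helper gates, most.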
